A study of Mus musculus with 8 samples.

Results

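The reprogramming factors Pou5f1 (Oct4), Sox2, Klf4 and Myc, and 3 partners that are not in the reprogramming transgene (Nanog, Sall4 and Mycn), were examined in clones of induced pluripotent stem (iPS) cells from mouse. Every probe set annotated to exactly 1 of these 7 gene symbols was taken, which gave 11 of the 45101 probe sets on the array (7 of 18193 genes with a probe set), 5 for the 4 inducible factors and 6 for the other 3 genes. The 8 clones fell into 2 groups, 4 derived with ascorbic acid (vitamin C) and 4 derived without it. The sample titles name ascorbic acid for the derivation of the clones, and "with" and "without" refer to that below. All 8 came from embryonic fibroblasts of Col-OKSM reprogrammable mice, in which doxycycline switches on Oct4, Sox2, Klf4 and cMyc. All were derived on irradiated fibroblast feeders in serum medium that held LIF and doxycycline, so both groups share the transgene, the drug and the feeders. Feeders were reduced before RNA extraction by letting them settle on plastic for 45 minutes. The labels do not say whether doxycycline was still present at harvest, nor which clones shared an embryo or a culture. P-values therefore rest on the spread between these clones, which may be partly technical.

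In pluripotent cells OCT4, a POU-domain factor, and SOX2, an HMG-box factor, bind DNA side by side at a composite site and activate a shared set of genes, Nanog among them. KLF4, a zinc-finger factor, supports the naive state, and MYC, a basic helix-loop-helix factor that pairs with MAX, drives growth and proliferation. NANOG is a homeodomain factor of the same circuit, SALL4 is a zinc-finger partner of OCT4 and NANOG, and MYCN is the MYC relative that is abundant in embryonic stem cells. The 4 inducible factors are the classical reprogramming cocktail, and once a clone is pluripotent the cell's own copies of Pou5f1 and Sox2 are active. An array of this kind reads short stretches near the 3′ end of a transcript. Whether these probe sets read transgene RNA as well as RNA of the endogenous genes was not tested.

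Letters of the kind these factors bind are marked for 3 of the genes, because Pou5f1, Sox2 and Nanog are set against each other across clones later on. RefSeq promoter windows (build GRCm38.p6) were found for 5 of the 7 genes, and the 250 bases before the start are used here. For a gene with several windows, the one listed earliest was taken. Capitals mark the matches on either strand to TTGTNATGCAAA (the OCT4-SOX2 composite), ATGCAAA (the octamer core, which the composite contains), ACAAAG (a SOX core), GGGCGGGG (a GC box of the kind KLF and SP factors bind) and CACGTG (the E-box of MYC and MAX). Nanog lies at chr6:122707239-122707488 on the plus strand, Pou5f1 at chr17:35505782-35506031 on the plus strand and Sox2 at chr3:34649745-34649994 on the plus strand.
Nanog: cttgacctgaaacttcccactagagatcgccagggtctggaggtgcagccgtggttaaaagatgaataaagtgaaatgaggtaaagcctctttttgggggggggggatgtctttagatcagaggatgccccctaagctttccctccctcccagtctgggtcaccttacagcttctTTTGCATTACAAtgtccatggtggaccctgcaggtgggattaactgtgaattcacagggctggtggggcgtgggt
Pou5f1: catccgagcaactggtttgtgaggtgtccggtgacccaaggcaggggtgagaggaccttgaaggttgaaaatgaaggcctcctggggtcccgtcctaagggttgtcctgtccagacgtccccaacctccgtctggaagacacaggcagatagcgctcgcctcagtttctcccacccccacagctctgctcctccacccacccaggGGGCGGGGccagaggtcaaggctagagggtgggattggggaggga
Sox2: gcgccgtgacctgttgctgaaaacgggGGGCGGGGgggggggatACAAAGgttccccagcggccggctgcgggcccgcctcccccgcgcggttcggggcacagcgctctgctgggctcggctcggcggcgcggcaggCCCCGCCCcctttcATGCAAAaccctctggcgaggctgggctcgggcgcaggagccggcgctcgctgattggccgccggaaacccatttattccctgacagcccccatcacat

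The Nanog window held 1 composite site, on the minus strand 75 bases before the start. This motif was found in 11 of 32841 promoter windows of the same length (0.0335%), and the 11 include both windows listed for Nanog. The Sox2 window held 1 octamer core, 1 SOX core and 2 GC boxes. The Pou5f1 window held 1 GC box, and a GC box was present in only 1 of the 2 windows listed for Pou5f1. Of the genes not printed, Klf4 held 4 GC boxes, 2 of which overlap, and 1 E-box, and Mycn held 2 GC boxes. Among all windows the octamer core was present in 4.13%, the SOX core in 16.5%, the GC box in 16.1% and the E-box in 6.02%. These matches describe letters in a window and do not show binding.

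Signals are the authors' linear array values, which carry no absolute unit. Differences are given as log2(signal + 16), with minus without ascorbic acid, and were tested with limma over 27022 probe sets, all those above the dimmest 40%. The SE, interval and p of limma draw on the variance of all tested probe sets beside that of the probe set itself. They need not match the SD between clones or the exact permutation p. All 11 probe sets passed that filter on low signal, whose limit corresponds to a signal of 93.7. Over all tested probe sets 13 were called at an adjusted p under 0.05, 12 higher and 1 lower with ascorbic acid, and 9 of them belong to Meg3, Rian or Mirg of the imprinted Dlk1-Dio3 domain. Array medians of log2(signal + 16) spanned 0.199, and log2 signals of any pair of arrays correlated at 0.976 to 0.982. Signals of different probe sets are not compared as levels, since each probe set binds with its own strength.

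None of the 11 probe sets was called (limma, adjusted p 0.781 to 0.995), against 0.0481% of all tested probe sets. At an unadjusted p under 0.05 there were 3 of the 11, the dimmer Klf4 probe set, Myc and the dimmest Mycn probe set, where the share over all tested probe sets was 5.55%. The groups overlapped in all 11, while they did not overlap in 3.4% of all tested probe sets. The signal was lower with ascorbic acid in 7 and higher in 4, and 53.4% of all tested probe sets were lower.

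**Figure D1:**
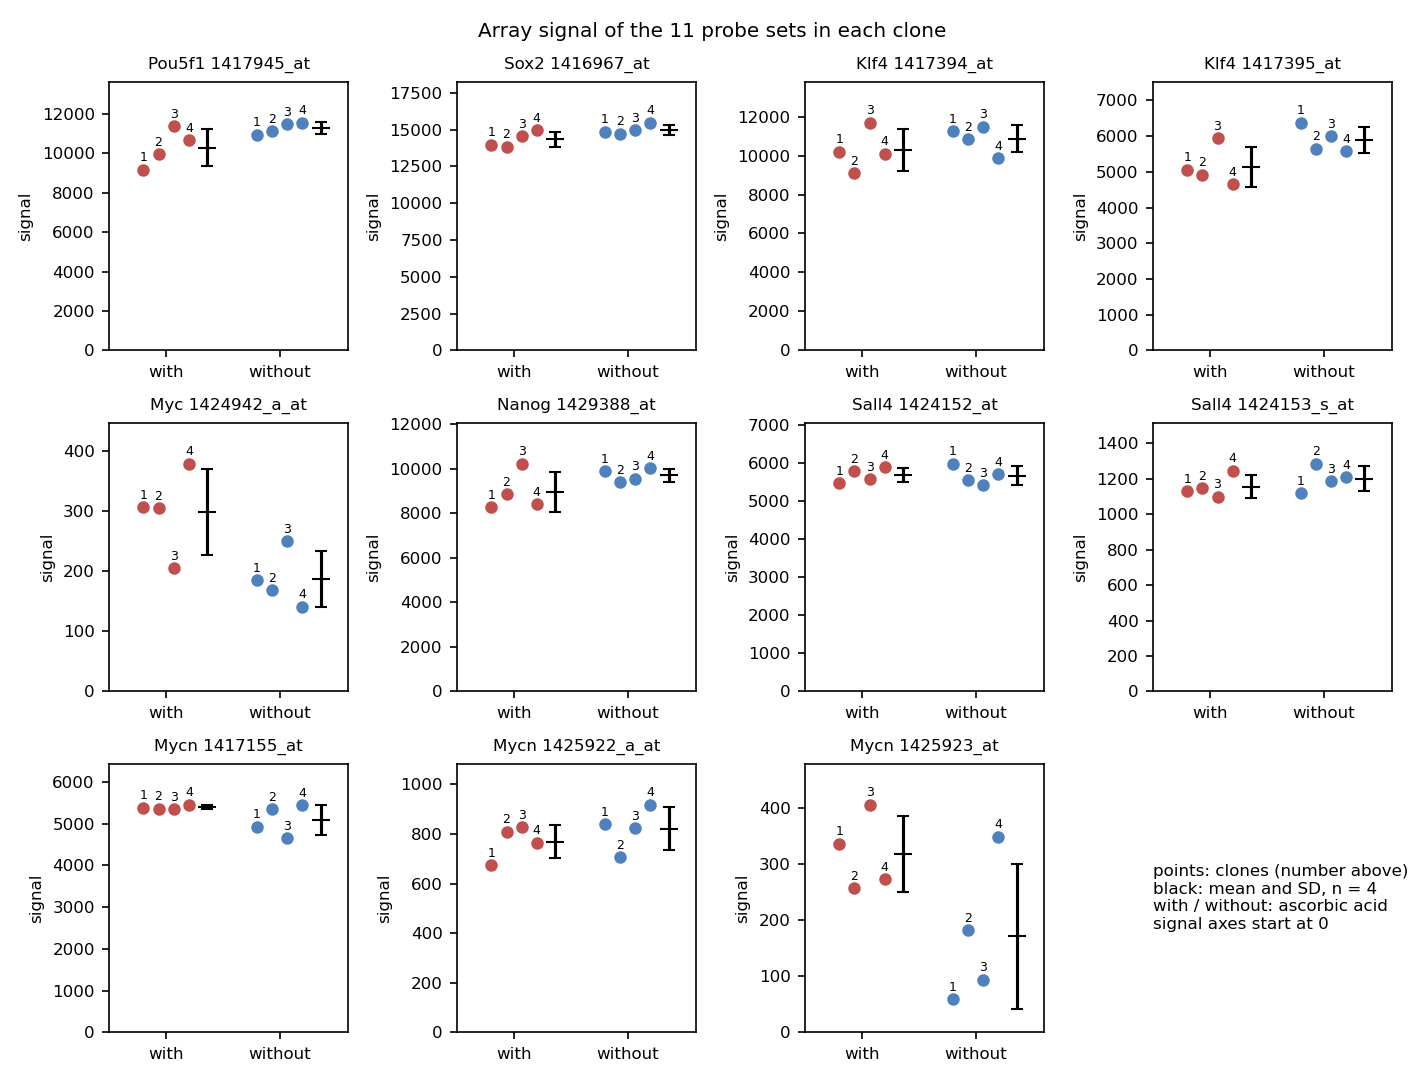
Array signal (vertical axes, linear, starting at 0) of each of the 11 probe sets in the 4 clones with ascorbic acid, left in each panel, and the 4 clones without, right. Numbers are clone numbers and black bars are mean and SD. Myc and the Mycn probe set 1425923_at show wide scatter, and the Mycn probe set 1417155_at lies between 5345 and 5456 in the clones with ascorbic acid.

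Pou5f1 has a single probe set, 1417945_at. It read 9173, 9950, 11379 and 10676 in clones 1 to 4 with ascorbic acid, and 10958, 11121, 11483 and 11571 in clones 1 to 4 without. Of the clones with ascorbic acid, 3 lay below all clones without it, and clone 3 lay among them. The log2 difference was -0.14 ± 0.07 (SE, n = 4 each; limma, adjusted p = 0.882), with a two-sided exact permutation p of 0.0857 over 70 assignments of the clones. The smallest p this design allows is 0.0286. The 95% interval ran from 0.814-fold to 1.02-fold, so larger losses or gains of Pou5f1 signal lie outside it. The clones with ascorbic acid were also more scattered, with an SD of 0.13 log2 against 0.04 without, a contrast that was not tested.

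Sox2, also with 1 probe set, had the narrowest range of the inducible factors on the log2 scale. It read 13977, 13835, 14538 and 14983 in clones 1 to 4 with ascorbic acid, and 14852, 14717, 14956 and 15483 in clones 1 to 4 without. Here too 3 of the 4 clones with ascorbic acid lay below all clones without, but the gap was small. The log2 difference was -0.07 ± 0.06 (SE, n = 4 each; limma, adjusted p = 0.919; exact permutation p = 0.114), and it turned to 0.04 under quantile normalization. The 95% interval was 0.870-fold to 1.05-fold.

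Klf4 has 2 probe sets. The brighter, 1417394_at, read 10200, 9091, 11693 and 10102 in clones 1 to 4 with ascorbic acid, and 11261, 10850, 11473 and 9878 in clones 1 to 4 without. Its groups overlapped, with clone 3 with ascorbic acid highest of all 8. The log2 difference was -0.08 ± 0.08 (SE, n = 4 each; limma, adjusted p = 0.921; exact permutation p = 0.371). The other, 1417395_at, read 5062, 4922, 5935 and 4655 in clones 1 to 4 with ascorbic acid, and 6382, 5649, 5997 and 5588 in clones 1 to 4 without. On this one all clones with ascorbic acid except clone 3 lay below every clone without. Its log2 difference was -0.20 ± 0.08 (SE, n = 4 each; limma, unadjusted p = 0.0260, adjusted p = 0.870; exact permutation p = 0.0857), with a 95% interval of 0.771-fold to 0.980-fold before adjustment.

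Myc showed the largest difference among the inducible factors, and it went the other way. Its probe set 1424942_a_at, of the class that reads several transcripts of the same gene, read 306, 306, 205 and 379 in clones 1 to 4 with ascorbic acid, and 185, 169, 251 and 141 in clones 1 to 4 without. Clones 1, 2 and 4 with ascorbic acid were above all clones without, and clone 3 was below clone 3 of the other group. The mean signal was 299 ± 71.8 with ascorbic acid, against 187 ± 46.4 in its absence (SD, n = 4 each). This is a 1.55-fold difference on the log2(signal + 16) scale. The log2 difference of 0.63 ± 0.20 (SE, n = 4 each) did not pass over all probe sets (limma, unadjusted p = 0.00805, adjusted p = 0.781; exact permutation p = 0.0571). It kept its sign under all 20 alternative settings, at 0.51 to 0.79, with adjusted p from 0.567 to 0.980. The signal lay near the low end of the tested range in all 8 clones, at 1.51 to 4.05 times the limit on dim probe sets.

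Nanog, which is not in the transgene, read 8281, 8861, 10232 and 8418 in clones 1 to 4 with ascorbic acid, and 9879, 9383, 9550 and 10023 in clones 1 to 4 without. Again clones 1, 2 and 4 with ascorbic acid were below all clones without, while clone 3 was the highest of all 8. The log2 difference was -0.12 ± 0.07 (SE, n = 4 each; limma, adjusted p = 0.882; exact permutation p = 0.171), with a 95% interval of 0.821-fold to 1.03-fold. The clones with ascorbic acid had an SD of 0.14 log2 and those without one of 0.04, as for Pou5f1.

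Sall4 had the smallest difference between groups of the 7 genes. Its brighter probe set, 1424152_at, read 5484, 5802, 5575 and 5902 in clones 1 to 4 with ascorbic acid, and 5995, 5554, 5427 and 5722 in clones 1 to 4 without. The groups overlapped throughout, and the log2 difference was 0.0045 ± 0.058 (SE, n = 4 each; limma, adjusted p = 0.995; exact permutation p = 0.914). Changes of Sall4 signal beyond 0.919-fold and 1.09-fold lie outside the 95% interval. The dimmer probe set, 1424153_s_at, of a class that can read several genes, read 1131, 1147, 1100 and 1246 in clones 1 to 4 with ascorbic acid, and 1118, 1286, 1186 and 1211 in clones 1 to 4 without. Its log2 difference was -0.05 ± 0.07 (SE, n = 4 each; limma, adjusted p = 0.940; exact permutation p = 0.371).

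Mycn has 3 probe sets, and they differed. The brightest, 1417155_at, read 5383, 5361, 5345 and 5456 in clones 1 to 4 with ascorbic acid, and 4927, 5337, 4650 and 5433 in clones 1 to 4 without. The clones with ascorbic acid were nearly identical, with an SD of 0.01 log2, while those without had one of 0.10, which is the reverse of Pou5f1 and Nanog. The log2 difference was 0.09 ± 0.06 (SE, n = 4 each; limma, adjusted p = 0.895; exact permutation p = 0.20). The next, 1425922_a_at, read 675, 810, 828 and 765 in clones 1 to 4 with ascorbic acid, and 840, 707, 822 and 919 in clones 1 to 4 without, a log2 difference of -0.09 ± 0.09 (SE, n = 4 each; limma, adjusted p = 0.923; exact permutation p = 0.371).

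The dimmest Mycn probe set, 1425923_at, had the largest difference of all 11. It read 336, 257, 405 and 272 in clones 1 to 4 with ascorbic acid, and 59.2, 182, 93.9 and 348 in clones 1 to 4 without. All clones with ascorbic acid were above 3 of the clones without, and clone 4 without lay among them. The log2 difference was 1.07 ± 0.38 (SE, n = 4 each; limma, unadjusted p = 0.0165, adjusted p = 0.848; exact permutation p = 0.114), and the group without ascorbic acid had an SD of 1.00 log2. Clone 1 without ascorbic acid was below the limit on dim probe sets and clone 3 was just above it.

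**Figure D2:**
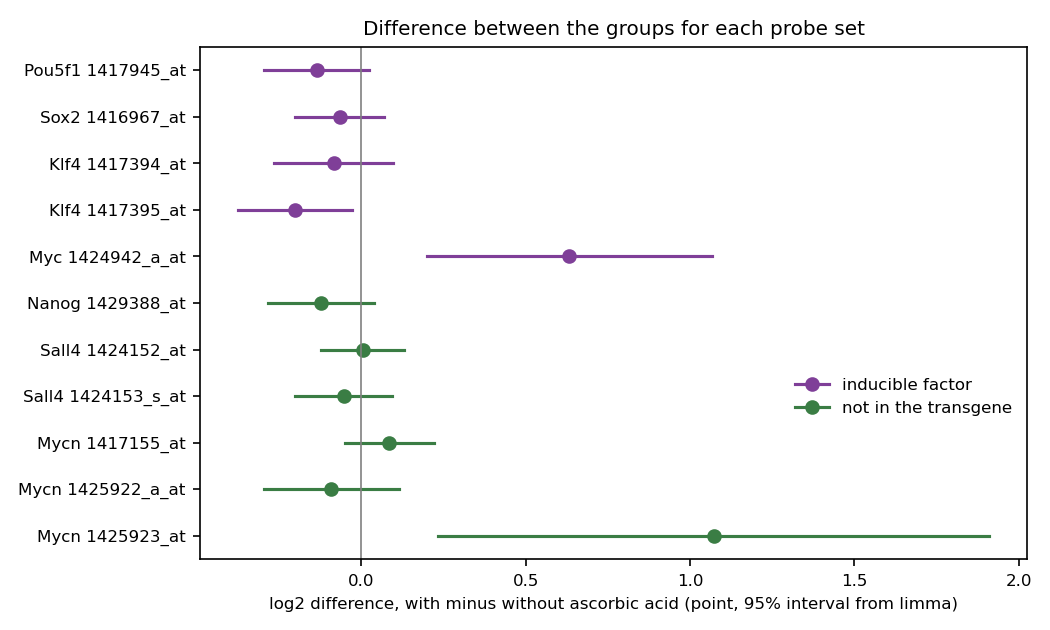
Log2 difference (horizontal axis, with minus without ascorbic acid) of each of the 11 probe sets, with its 95% interval from limma, not adjusted for the number of probe sets. The intervals of Myc, of Klf4 1417395_at and of Mycn 1425923_at leave out 0, and none of the 11 was called after adjustment.

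Within a gene, the question was whether probe sets gave the same account of the clones. The log2 gap between the dimmer and the brighter Klf4 probe set was -0.996 ± 0.10 in clones with ascorbic acid, against -0.88 ± 0.07 in the others (SD, n = 4 each), a difference of -0.12 (two-sided exact permutation p = 0.114). Without clone 2 with ascorbic acid this difference was -0.16 (exact permutation p = 0.0286). The gap between the Sall4 probe sets differed by -0.06 between groups (exact permutation p = 0.429). For Mycn, the gap of 1425922_a_at to the brightest probe set differed by -0.18 (exact permutation p = 0.171), and that of 1425923_at by 0.99 (exact permutation p = 0.114). The gap of 1425923_at was -4.04 ± 0.29 in clones with ascorbic acid, against -5.03 ± 0.91 in the others (SD, n = 4 each). This probe set was at 59.2 and 93.9, below and at the dim limit, in clones 1 and 3 without ascorbic acid, so the size of the gap depends on the pseudocount: the groups differed by 1.10 with a pseudocount of 1 and by 0.756 with one of 64 (exact permutation p = 0.114 in both). When clone 4 without ascorbic acid was left out they differed by 1.36 (exact permutation p = 0.0286), a value open to the same limit. With all clones in, 0 of 4 comparisons passed. For Klf4 and Mycn 1425923_at the clone named was the only one that made the groups overlap, and it was picked from these values. The p of 0.0286 without it is the smallest possible with 1 clone left out, so no conclusion is drawn from it.

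The order of clones was shared by some probe sets of a gene and not by others. Over the 8 clones the Klf4 pair had a Pearson correlation of 0.774. The brightest and the dimmest Mycn probe set had one of 0.839 (0.759 after group means were removed): clones 1 and 3 without ascorbic acid were lowest on both. The Mycn probe set 1425922_a_at had a correlation of -0.229 with the brightest, and the Sall4 pair one of -0.0456. These are descriptions over 8 clones that share an array per clone, and no p is given.

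**Figure D3:**
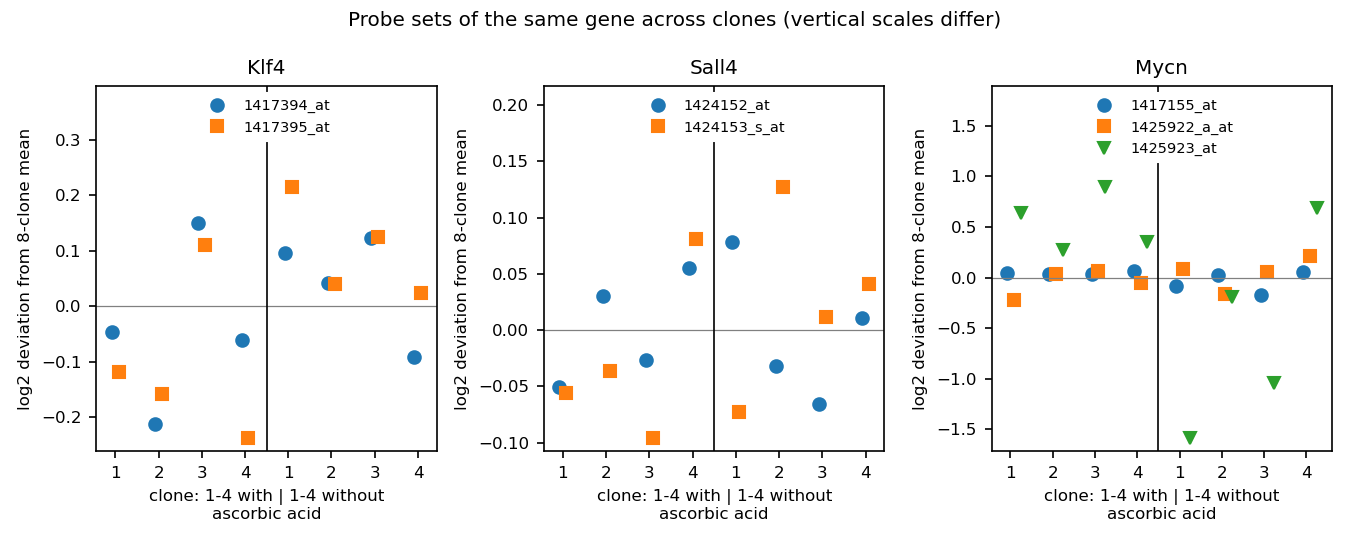
Deviation of each probe set from its own mean over the 8 clones (log2, vertical axes with different scales) for the genes with more than 1 probe set; clones 1 to 4 with ascorbic acid are left of the black line and clones 1 to 4 without are right. The Klf4 probe sets moved together, the Sall4 ones did not, and the Mycn probe set 1425923_at covered the widest range.

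Across genes, clone 3 with ascorbic acid stood on the side of the clones without for several members. It was the highest clone of its group for Pou5f1, for both Klf4 probe sets and for Nanog, and the lowest for Myc. Leaving it out gave a log2 difference of -0.19 for Pou5f1 (limma, adjusted p = 0.726), -0.19 for Nanog (0.726), -0.27 for Klf4 1417395_at (0.613) and 0.79 for Myc (0.567), none of them called. Clone 3 was picked from these same values, so leaving it out had to enlarge these differences, and no conclusion is drawn from that. Leaving out other clones with ascorbic acid made some differences smaller. Without clone 1 the log2 difference was -0.08 for Pou5f1, -0.09 for Nanog and -0.03 for Mycn 1425922_a_at, and without clone 2 it was -0.03 for Klf4 1417394_at. On the array of clone 3 with ascorbic acid the 100 brightest probe sets held 7.80% of the summed signal. This share was 6.08% to 6.99% in the other clones with ascorbic acid and 6.61% to 8.37% in the clones without. The part of clone 3 with ascorbic acid in the result was not tested.

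Of the 21 pairs among the 7 genes, each taken at its brightest probe set, Myc and Nanog ran most strongly against each other. Their correlation over the 8 clones was -0.83, and -0.740 after group means were removed. Under quantile normalization it was -0.932. Pou5f1 and Nanog ran together at 0.816 (0.719 after group means were removed), and Pou5f1 and Sox2 at 0.812 (0.682). Quantile normalization lowered these to 0.508 and 0.0871. Sall4 had correlations of -0.320 to 0.187 with the other 6 genes. All are descriptions over 8 clones with no p.

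**Figure D4:**
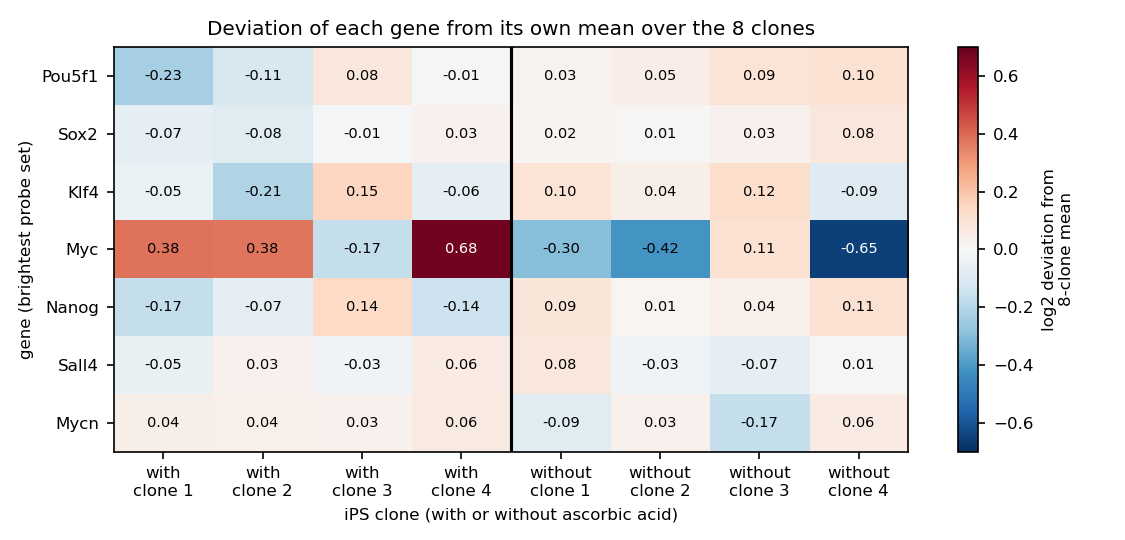
Deviation of each gene's brightest probe set from its own mean over the 8 clones, in log2 units (colour and printed value). The 4 clones with ascorbic acid are left of the black line and the 4 without are right. Myc has the widest range, and clone 3 with ascorbic acid is above the mean for Pou5f1, Klf4 and Nanog and below it for Myc.

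The 4 inducible factors did not move one way: Myc was higher with ascorbic acid, and the brightest probe sets of Pou5f1, Klf4 and, except under quantile normalization, Sox2 were lower, none of them called. The mean deviation of the 4 inducible factors minus that of Nanog, Sall4 and Mycn was -0.03 to 0.17 log2 in the clones with ascorbic acid and -0.20 to 0.15 in the clones without. Its highest values were in clone 4 with and clone 3 without ascorbic acid, the clones with the highest Myc of their groups. Myc has the widest range of the 4 and weighs most in this mean, so the score says nothing of the inducible factors as a set, and no p is given for it.

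The genes whose pattern over the 8 clones was most like that of each member were found among 13124 other genes. For Pou5f1 they were Tdrd7, a tudor-domain gene, and Erlin2, of the endoplasmic reticulum, at correlations of 0.960 and 0.958. For Sox2 they were Igsf3 and Mpzl1 (0.973 and 0.965). For Klf4 they were Hp1bp3, which encodes a protein that binds heterochromatin protein 1, and Rnf121 (0.955 and 0.950). For Myc they were Trub1, a pseudouridine synthase, and Naa20, a subunit of an N-terminal acetyltransferase (0.973 and 0.953). For Nanog they were Fra10ac1 and mitochondrial ND5 (0.982 and 0.975), for Sall4 Snrnp27 and Pola2 (0.976 and 0.942), and for Mycn Mrtfb and Pnpla7 (0.972 and 0.956). Each member had between 10 and 71 genes at a correlation above 0.9. With 8 clones and this many genes such values are only a description.

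Genes around the factors were read from lists, 1 probe set (the brightest) per gene, with 0 genes called in any list by limma. Over all tested probe sets the median log2 difference was -0.01, 53.4% were lower and 5.55% had an unadjusted limma p under 0.05. The MYC-MAX network, which holds MYC's dimer partner, its antagonists and cofactors, was higher in 13 and lower in 8 of 21 tested genes, with a median of 0.03 and 3 genes at an unadjusted p under 0.05. Mxi1, an antagonist that competes for MAX, read 1655 ± 144 with ascorbic acid, against 1437 ± 102 in its absence (adjusted p = 0.869). Mlxip, a glucose-responsive partner of MLX, read 665 ± 32.2 and 553 ± 42.4 (adjusted p = 0.781). The 2 brightest, Ruvbl2 and Wdr5, had log2 differences of -0.07 and -0.09. Errors in these and the following list values are SD with n = 4 per group, and adjusted p-values are limma's over all tested probe sets.

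MYC target genes were higher in 10 and lower in 24 of 34, with a median of -0.04 and 1 gene at an unadjusted p under 0.05. The list holds genes that MYC represses, Gadd45a among them, beside genes it activates, so these counts have no single expected direction. Myc signal itself was higher in 3 of the 4 clones with ascorbic acid than in any without, and a link to these genes was not tested. Npm1, a nucleolar chaperone, read 22396 ± 2918 with and 25249 ± 2542 without, and Ldha, lactate dehydrogenase, 18723 ± 2688 and 21058 ± 2112 (adjusted p = 0.882 for both). Rrp9, of ribosomal RNA processing, read 1332 ± 169 and 1501 ± 93.8 (adjusted p = 0.882). Gadd45a, a growth-arrest gene that MYC represses, read 1056 ± 48.9 and 863 ± 128 (adjusted p = 0.848). Shmt1, a folate-cycle enzyme on this list, was called lower on a probe set that is not its brightest (log2 difference -0.59, adjusted p = 0.00611), while its brightest was at -0.10 (adjusted p = 0.882). The Shmt1 call was lost under median centring and with a replicate block, where 0 probe sets were called lower.

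Target genes of OCT4, SOX2 and NANOG were higher in 11 and lower in 20 of 31, with a median of -0.05 and 4 genes at an unadjusted p under 0.05. The pluripotency factor genes Klf2 and Tbx3 had the smallest p-values: Klf2 read 5779 ± 572 with and 7130 ± 526 without (adjusted p = 0.684), and Tbx3 1345 ± 93.9 and 1639 ± 107 (adjusted p = 0.607). Dppa5a, an RNA-binding protein of pluripotent cells, read 24020 ± 3953 and 28452 ± 4220, and Tdgf1, a Nodal co-receptor, 15443 ± 1491 and 16972 ± 654 (adjusted p = 0.882 for both).

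Protein partners of the factors were higher in 12 and lower in 15 of 27, with a median of -0.03 and 1 gene at an unadjusted p under 0.05. Tfcp2l1, a naive-state factor, read 2140 ± 383 with and 2714 ± 202 without (adjusted p = 0.781), and Cetn2, a subunit of the XPC complex that acts with OCT4 and SOX2, 1379 ± 73.6 and 1247 ± 104 (adjusted p = 0.882). The histone-binding Rbbp4 and Rbbp7 were at -0.07 and 0.07. Regulators of the factors' protein or RNA were higher in 14 and lower in 11 of 25 (median 0.02, 2 at an unadjusted p under 0.05). Among them Usp22, a deubiquitinase, was at 0.16 and Setd7, a lysine methyltransferase, at 0.29 (adjusted p = 0.869 and 0.870), and the brightest, Set and Prmt1, were at -0.23 and -0.06.

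Paralogues of the factors were higher in 14 and lower in 8 of 22, with a median of 0.09 and 4 genes at an unadjusted p under 0.05. Sox1, a SOXB1 relative of Sox2 known from early neural cells, read 434 ± 50.9 with and 276 ± 90.0 without (adjusted p = 0.781). Klf2, a relative of Klf4 that is also on the target list, was lower as given above, and Klf5, another relative in the naive circuit, was at -0.14 (adjusted p = 0.882).

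**Figure D5:**
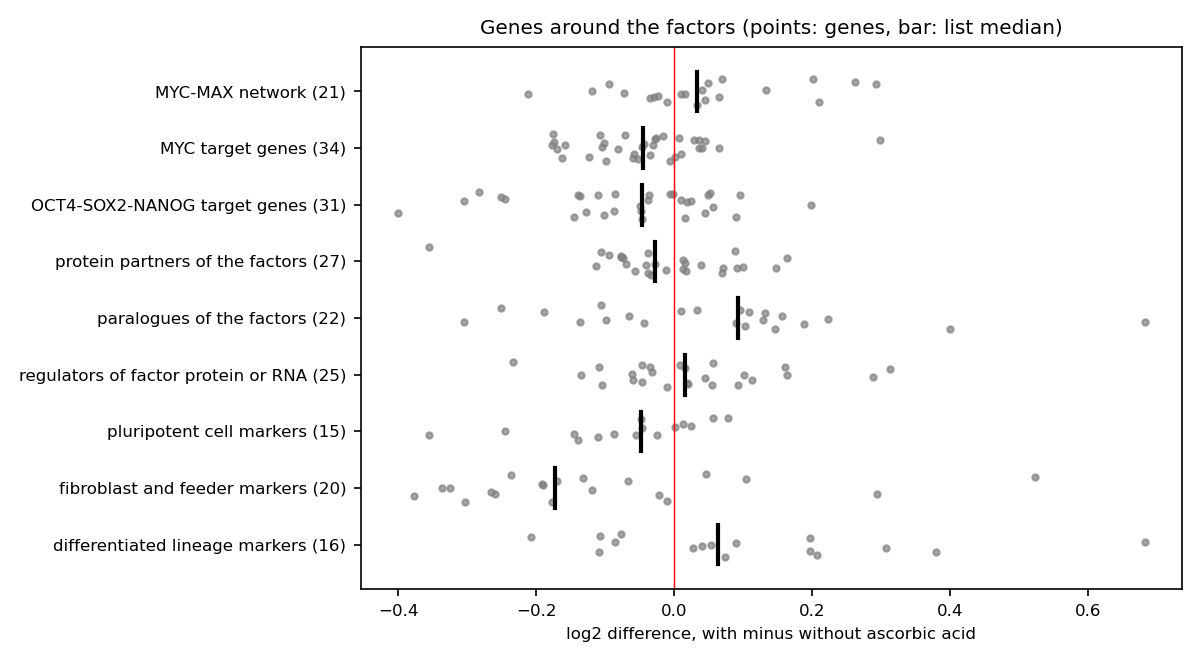
Log2 difference (horizontal axis, with minus without ascorbic acid) of each tested gene (grey points) in each list, with the list median (black bar) and the number of tested genes in brackets. The medians run from -0.17 for fibroblast and feeder markers to 0.09 for paralogues of the factors.

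The cells were checked against markers. Of 16 pluripotent cell markers 15 were above the dim limit, Dppa5a, Tdgf1 and Cdh1 among them, and their summed signal ranged from 87444 to 103840 with ascorbic acid, against 96053 to 109120 in the other group. This list was higher in 5 and lower in 10 (median -0.05, 1 at an unadjusted p under 0.05). Fibroblast and feeder markers were also present: 20 of the 23 on the array were above the limit, with Fn1 at 11842 ± 1381 with and 13281 ± 892 without and Vim at 11871 ± 1052 and 13535 ± 734 (adjusted p = 0.882 and 0.871). Their summed signal ranged from 47555 to 58352 with ascorbic acid, against 55070 to 59854 in the other group, and they were higher in 4 and lower in 16 of 20 (median -0.17, 7 at an unadjusted p under 0.05). Over all tested probe sets 5.55% had such a p, and the list median was -0.119 under quantile normalization. The smallest p-values were those of Postn, at -0.38, and of Twist1, which went against most of the list, at 0.52 (limma, adjusted p = 0.724 and 0.781). No marker on the array was listed at 0. Klf4 and Myc are also expressed in fibroblasts, and the part of feeder RNA in their signals was not tested. In such a bulk sample, fewer cells of a type and less RNA per cell cannot be told apart. Markers of differentiated lineages were higher in 11 and lower in 5 of 16 (median 0.06, 3 at an unadjusted p under 0.05). The median was -0.02 under the 60% dim filter, which leaves 10 genes, and ran from 0.02 without clone 1 to 0.14 without clone 4 with ascorbic acid. Sox1 was as above. Tubb3, a neuronal tubulin, was at 0.38 (adjusted p = 0.870), and the brightest, the keratins Krt8 and Krt18, were at -0.09 and -0.08.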

How the data were processed

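Expression was measured on Affymetrix mouse 430_2 3'-IVT arrays, 1 per clone, 4 clones with and 4 without ascorbic acid. The authors deposited 1 signal intensity for each probe set, not log-transformed. GCOS, Affymetrix's operating software, is the tool in the submitters' processing notes. Which version and algorithm it ran is not given in the sources, and no genome build is named in the files. Array controls (64) were left out. Gene symbols came from the platform annotation and were checked through Entrez identifiers against RefSeq (GRCm38.p6). Of 34945 probe sets with a single symbol, 99.4% matched and 0 were renamed.

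Signals were taken as log2(signal + 16), and a fold change on this scale is smaller than the true one for dim probe sets. The deposited scaling was kept because array medians on this scale lay within 0.2 log2 of each other. The limit was met narrowly, at 0.199, and medians of the signal itself ran from 134 to 156. Probe sets among the dimmest 40% by their mean were left out. The 27022 others were tested with limma 3.58.1 in R 4.3.3 (lmFit, eBayes with an intensity trend), in a two-sided test at a threshold of 0.05 after Benjamini-Hochberg adjustment over these 27022. Single probe sets were also tested with a two-sided exact permutation test over clones. The script was tested on simulated data. The number of arrays limits the precision. Drawings were made with matplotlib 3.10.9.

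Every probe set of the 7 genes is named. From each list the text names the 2 genes with the smallest p and the 2 brightest, or any gene called, and for each member the 2 genes with the most similar pattern over clones. Shmt1, Cdh1 and the genes of the Dlk1-Dio3 domain were named after their values were seen. The members and lists were chosen with earlier results of these data known. The labels do not pair clones of the 2 groups by number. Deviations of same-numbered clones correlated at -0.152 to 0.0161, which cannot show whether any of them shared an embryo or a culture. The settings also tried were no filter on dim probe sets or a 60% filter, pseudocounts of 1 and 64, median centring, quantile normalization, 1 probe set per gene, leaving out _s_at and _x_at probe sets, eBayes without trend or robust, array weights, a replicate block and leaving out each clone. Quantile normalization of the correlations between genes was added after seeing the data.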

Additional observations from a re-analysis of the deposited data

Results flagged for a closer look

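In 3 of 80 groups of 4 clones (3.75%) 1 clone lay far from the rest, where chance gives about 5%. None of the 11 probe sets of the 7 factors was among them. Tdgf1, a target of the factors, had a signal of 17653 in clone 3 of the group with ascorbic acid, where the other clones had 14391 to 14924. Rbbp7, a histone-binding partner, read 12515 in the same clone, against 9324 to 9843. Twist1, a fibroblast marker, had 160.6 in clone 2 of that group, where the others had 212 to 217.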

How the results depend on the processing

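None of the 11 probe sets was called under any of the 20 alternatives that could give it a value. The Sox2 difference turned to 0.0385 under quantile normalization. That of Sall4 1424152_at ran from -0.0166 to 0.0312 when clones were left out, and turned negative without clone 2 (-0.00498) or 4 (-0.0132) with ascorbic acid and without clone 2 (-0.00547) or 3 (-0.0166) of the other group. The other 9 probe sets kept their sign. Over all probe sets 13 were called in the main fit, and 11 to 15 when clones were left out. With 1 probe set per gene 3 were called. There Meg3 and Rian, called on several probe sets in the main fit, can each count only once. What else lowered the count was not tested. In eBayes without trend 8 were called, and the cause was not tested. The list medians near 0 moved: under median centring, which shifts every difference by the same amount, to 0.0662 for the MYC-MAX network, 0.00601 for protein partners and 0.0494 for regulators, and over left-out clones from -0.00267 to 0.0518, from -0.0409 to 0.00395 and from -0.00963 to 0.0461. Median centring also brought the medians of MYC targets to -0.0114, OCT4-SOX2-NANOG targets to -0.0134 and pluripotent markers to -0.0144. Over left-out clones MYC targets ran from -0.0709 to -0.0202, OCT4-SOX2-NANOG targets from -0.0687 to -0.0229, paralogues from 0.044 to 0.113, pluripotent markers from -0.0894 to -0.0135, fibroblast markers from -0.246 to -0.0731 and lineage markers from 0.0196 to 0.137; lineage markers turned to -0.0249 under the 60% filter. When clones were left out, the gap between probe sets differed by -0.156 to -0.0782 for Klf4 and by 0.65 to 1.36 for Mycn 1425923_at. The ends at -0.156 and 1.36 had an exact permutation p of 0.0286, the smallest possible with 1 clone left out. With the clone number as a replicate block 0 of the 11 were called, and 11 over all probe sets. There the Myc difference of 0.633 had a limma adjusted p of 0.957. The labels do not say whether same-numbered clones share more than a number. The correlation of Pou5f1 with Nanog moved to 0.508 and with Sox2 to 0.0871 under quantile normalization. Myc and the Mycn probe set 1425923_at are the 2 dimmest, with lowest signals of 1.51 and 0.632 times the dim limit. The part of background in their spread was not tested.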
